A study of Mus musculus with 11 samples.

Results

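Ifng, Il22, Il17a, Il17f, Gzma, Gzmb and Prf1 encode the secreted effectors of type 1, type 3 and cytotoxic lymphocytes. Open chromatin around these 7 genes was described in all 9 ATAC-seq libraries of the series, out of 21938 protein-coding genes measured in the same way. A gene's window was its body on the mm10 genome extended by 60 kb on each side, and every peak that overlapped a window by at least 1 bp was taken. The windows held 43 of the 71400 intervals obtained by merging the peaks of all libraries, and between 5 (CLP replicate 1) and 29 (both NKT libraries) of the peaks of a library.

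The libraries were made with a transposase that cuts accessible DNA, from sorted C57BL/6 mouse cells. Thymus gave CD4 single-positive thymocytes (CD4SP, 2 libraries) and natural killer T thymocytes (NKT, 2 libraries). Bone marrow gave common lymphoid progenitors (CLP, 3 libraries) and innate lymphoid cell precursors (ILCP, 2 libraries). NKT and ILCP express the transcription factor PLZF, the product of Zbtb16, and each was set against a cell type of its own tissue that does not. The mice were a few weeks old, and the labels name no deletion or treatment in any of the 4 groups. NKT cells were sorted by binding of a lipid-loaded CD1d tetramer. CLP were sorted as lineage-negative cells with IL-7Rα and high Flt3, and ILCP as lineage-negative cells with IL-7Rα, the integrin α4β7 and a green fluorescent reporter of Zbtb16. The mice behind each library are not named beyond the strain. The libraries of a type were separate biological replicates, and a precipitation of Runx1 from NKT cells with its input was not analysed here.

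Interferon-γ, the product of Ifng, activates macrophages and is the signature cytokine of type 1 lymphocytes. IL-17A, IL-17F and IL-22 act mainly on epithelial and stromal cells, recruit neutrophils and reinforce barriers, and mark type 3 lymphocytes. Granzymes A and B are serine proteases that enter a target cell through pores made by perforin, the product of Prf1. NKT thymocytes and the descendants of ILCP can take up type 1 and type 3 programs, and much of the control of these genes is known to lie in distal elements bound by T-box, ROR, AP-1 and RUNX factors.

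Sequences of the open intervals on which the comparisons turned are printed in lower case, 5′ to 3′ on the plus strand of GRCm38 (mm10), as the central 200 bases of the interval. Capitals mark any of 5 short motifs searched on both strands, namely RUNX (TGTGGT or TGCGGT), T-box (GGTGTGA), ROR (AGGTCA), AP-1 (TGANTCA) and TCF (CTTTGA). Names give the distance of the interval's centre from the gene's start in the direction of transcription. The first 5 are shown because they are the sites between and around Il17a and Il17f that were open in both ILCP libraries and in neither CD4SP library, of which the site at +23.7 kb also had a peak in 1 CLP library. They lay at chr1:20685932-20686131, chr1:20725662-20725861, chr1:20740467-20740666, chr1:20754528-20754727 and chr1:20766656-20766855, all intergenic.
Il17a -44.9 kb: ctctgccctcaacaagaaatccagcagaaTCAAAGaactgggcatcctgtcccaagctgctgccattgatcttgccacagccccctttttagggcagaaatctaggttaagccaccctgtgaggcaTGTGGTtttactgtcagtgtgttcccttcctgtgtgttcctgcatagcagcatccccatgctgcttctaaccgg
Il17a -5.1 kb: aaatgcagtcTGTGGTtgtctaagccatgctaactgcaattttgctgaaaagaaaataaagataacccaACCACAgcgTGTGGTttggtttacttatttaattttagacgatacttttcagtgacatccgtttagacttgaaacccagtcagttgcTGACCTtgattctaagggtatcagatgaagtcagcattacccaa
Il17a +9.7 kb: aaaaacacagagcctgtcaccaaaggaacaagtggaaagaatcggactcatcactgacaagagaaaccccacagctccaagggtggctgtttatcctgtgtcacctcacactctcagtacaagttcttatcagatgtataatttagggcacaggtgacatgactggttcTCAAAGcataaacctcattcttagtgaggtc
Il17a +23.7 kb: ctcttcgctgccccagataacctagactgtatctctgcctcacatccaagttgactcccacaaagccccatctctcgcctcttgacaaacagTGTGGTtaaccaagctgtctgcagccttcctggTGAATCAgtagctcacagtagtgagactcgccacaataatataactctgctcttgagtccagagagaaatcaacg
Il17a +35.8 kb: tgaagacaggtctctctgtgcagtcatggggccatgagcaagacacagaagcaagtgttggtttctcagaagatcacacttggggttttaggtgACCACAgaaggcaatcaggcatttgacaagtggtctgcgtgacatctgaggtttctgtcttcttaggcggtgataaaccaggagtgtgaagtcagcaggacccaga

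The next 2 are shown for Ifng, as its strongest interval in the thymus and the stronger of 2 intervals open in both NKT libraries and in no CD4SP library. They lay at chr10:118419131-118419330 and chr10:118406933-118407132, both intergenic.
Ifng -21.8 kb: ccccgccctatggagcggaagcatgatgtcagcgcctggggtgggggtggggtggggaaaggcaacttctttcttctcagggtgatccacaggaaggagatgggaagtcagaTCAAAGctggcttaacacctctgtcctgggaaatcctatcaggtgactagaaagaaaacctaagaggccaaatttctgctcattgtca
Ifng -34.0 kb: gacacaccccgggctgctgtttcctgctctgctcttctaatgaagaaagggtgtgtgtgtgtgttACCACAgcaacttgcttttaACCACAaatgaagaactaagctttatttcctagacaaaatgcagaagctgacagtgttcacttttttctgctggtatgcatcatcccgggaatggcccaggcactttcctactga

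The last 3 distal sequences are the intervals near Gzma, Gzmb and Il22 that were open in both ILCP libraries and in no CLP library. They lay at chr13:113134946-113135145, chr14:56287957-56288156 and chr10:118172525-118172724, all intergenic.
Gzma -34.1 kb: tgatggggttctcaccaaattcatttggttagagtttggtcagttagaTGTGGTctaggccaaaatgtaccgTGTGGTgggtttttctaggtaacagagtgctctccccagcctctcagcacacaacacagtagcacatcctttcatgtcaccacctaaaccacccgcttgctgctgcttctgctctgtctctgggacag
Gzmb -25.8 kb: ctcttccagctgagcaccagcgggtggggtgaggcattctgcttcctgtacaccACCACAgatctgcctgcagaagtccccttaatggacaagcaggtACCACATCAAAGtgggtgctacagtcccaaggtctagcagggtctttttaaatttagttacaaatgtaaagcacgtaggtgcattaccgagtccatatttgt
Il22 -32.3 kb: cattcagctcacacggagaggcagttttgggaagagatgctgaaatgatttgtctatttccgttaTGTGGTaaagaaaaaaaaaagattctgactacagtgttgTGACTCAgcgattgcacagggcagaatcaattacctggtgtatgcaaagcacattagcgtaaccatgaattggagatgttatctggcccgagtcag

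A pair of promoters is shown for contrast, from RefSeq on GRCm38, each 300 bases long on the gene's own strand and ending shortly after the start. The Gzma promoter (chr13:113100932-113101231, minus strand) lay in a peak of every thymic library. The Il17a promoter (chr1:20730655-20730954, plus strand) lay in a peak of none of the 9 libraries and held RUNX, ROR and AP-1 letters.
Gzma promoter: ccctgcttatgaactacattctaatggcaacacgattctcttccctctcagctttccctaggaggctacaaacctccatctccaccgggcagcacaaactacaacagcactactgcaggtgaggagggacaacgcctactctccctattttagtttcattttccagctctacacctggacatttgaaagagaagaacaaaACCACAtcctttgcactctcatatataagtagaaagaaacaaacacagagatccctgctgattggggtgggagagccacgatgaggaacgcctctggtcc
Il17a promoter: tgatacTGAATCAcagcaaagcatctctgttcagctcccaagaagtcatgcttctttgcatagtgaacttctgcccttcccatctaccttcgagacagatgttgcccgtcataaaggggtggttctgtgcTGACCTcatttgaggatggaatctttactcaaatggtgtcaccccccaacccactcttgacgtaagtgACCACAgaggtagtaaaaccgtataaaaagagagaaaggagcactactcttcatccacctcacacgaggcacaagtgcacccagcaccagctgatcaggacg

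The number of peaks per library ran from 19343 (CLP replicate 1) to 41535 (CLP replicate 2), and CLP replicate 1 stood apart from the other CLP library at 40136. NKT and CD4SP libraries held 33648 to 38793 peaks and ILCP libraries 25771 and 26328. The read depth of each library is not given in the files, so where a library lacks a peak, the caller simply gave none. Over all genes the median of the difference in window peaks was 0 between NKT and CD4SP and -0.67 between ILCP and CLP. The labels were compared with marker genes by peaks within 1 kb of the start. The start of Zbtb16 was open in 0 of 2 CD4SP, 2 of 2 NKT, 1 of 3 CLP and 2 of 2 ILCP libraries. All 5 starts chosen for CD4SP were open in every CD4SP and NKT library. Of these, Cd4 and Cd3e were open in no marrow library, whereas Ccr7, Cd5 and Zbtb7b were open in 2 or 3 CLP libraries, and Ccr7 and Zbtb7b in both ILCP libraries. All 5 starts chosen for CLP were open in the 3 CLP libraries, Rag1 in these alone, while Flt3 and Kit were open in both ILCP libraries and Il7r and Ebf1 in every thymic library. Among the other markers chosen for ILCP, the starts of Id2 and Pdcd1 were open in both ILCP libraries, that of Gata3 in 1, and those of Tcf7 and Itgb7 in neither. Id2 and Pdcd1 were also open in every other library. Among the other markers chosen for NKT, the starts of Il2rb and Cd44 were open in both NKT and both CD4SP libraries, that of Tbx21 in 1 NKT library, and that of Klrb1c in none. Starts of the B cell markers Pax5 and Ms4a1 were open in no library.

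The first question was whether the PLZF-expressing type had more open sites around each effector gene than the cell type of its own tissue. NKT exceeded CD4SP around Ifng, Il17a, Il17f and Gzma and fell below it around Prf1. ILCP exceeded CLP around Il17a, Il17f, Il22 and Gzmb, and Il17a and Il17f were the 2 genes that were higher in both. A gene was called where every library of a type had more window peaks than every library of the other. By this call 4 of the 7 members were higher in NKT, against 9.75% of all protein-coding genes, and 1 was lower, against 6.62%. In the marrow 4 of 7 were higher in ILCP, against 3.7% of all genes, and 0 were lower, against 10.2%. Higher in both tissues were 2 of 7, against 0.693%, and lower in both 0, against 1.02%. Il17a and Il17f are neighbours whose windows share 5 intervals, so their calls are not independent. By the exact two-sided permutation test over libraries, 2 libraries against 2 cannot give a p under 0.333, 2 against 3 none under 0.1 and both tissues together none under 0.0167. No member passed 0.05 after Benjamini-Hochberg adjustment of these exact permutation p-values over all genes (adjusted p 0.863 or 1 in the thymic, marrow and joint comparisons). Before adjustment, the joint exact permutation p was under 0.05 for 3 of the 7 members, Il17a, Il17f and Gzmb, against 1.89% of all genes. In bulk libraries, a site open in more cells and a site more open in each cell cannot be told apart.

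**Figure D1:**
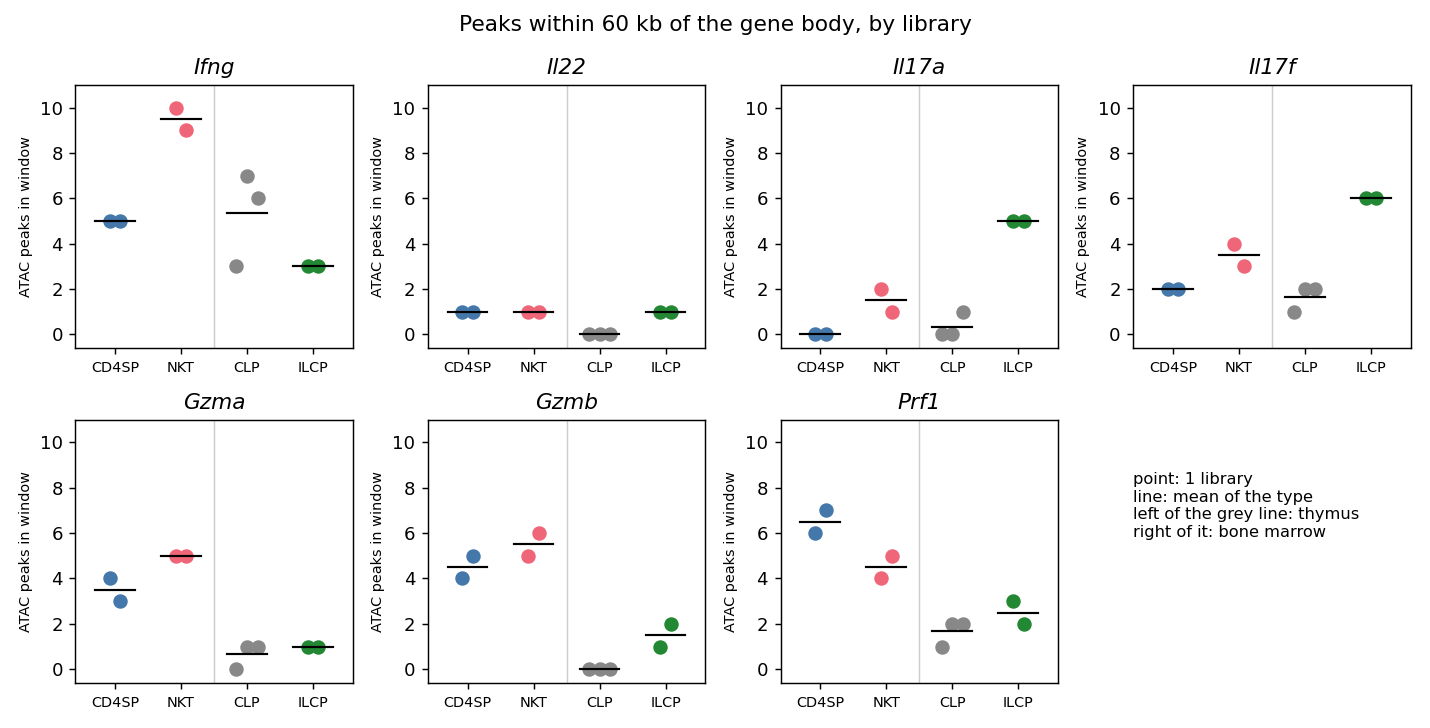
Number of ATAC peaks (vertical axis, peaks per window) in the window of each of the 7 genes, with a point for each library, grouped by cell type, and a line at the mean of the type. Both ILCP libraries hold 5 peaks around Il17a where no CLP library holds more than 1, and the NKT libraries hold 9 and 10 peaks around Ifng where both CD4SP libraries hold 5.

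Il17a and Il17f lie next to each other on chromosome 1 and encode the 2 IL-17 cytokines that pair as homodimers or heterodimers. The Il17a window (gene at chr1:20730905-20734496, plus strand) held 0 peaks in both CD4SP libraries, 2 and 1 in NKT replicates 1 and 2, 0, 0 and 1 in CLP replicates 1 to 3, and 5 in both ILCP libraries. ILCP was thus the highest type and shared no value with any other. The difference in means was 1.5 peaks in the thymus (exact permutation p = 0.333) and 4.67 in the marrow (exact permutation p = 0.1), and the sum of both had p = 0.0167 in the exact permutation test, in each case the smallest that the design allows. The Il17f window (gene at chr1:20777146-20790617, minus strand) held 2 peaks in both CD4SP libraries, 4 and 3 in NKT, 1, 2 and 2 in CLP and 6 in both ILCP libraries. ILCP was again the highest type and NKT the next, and neither pair of types in a tissue overlapped. The mean differences were 1.5 peaks in the thymus and 4.33 in the marrow, with exact permutation p-values of 0.333 and 0.1 and of 0.0167 for their sum. The difference between tissues was not separable, with an exact permutation p of 0.283 for Il17a and 0.25 for Il17f. With a window of 20 kb or 100 kb the NKT call of Il17f was lost.

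Of the 9 intervals in either IL-17 window, 4 were ILCP-specific within the marrow and absent from both CD4SP libraries too, at -44.9, -5.1, +9.7 and +35.8 kb from the Il17a start. The -44.9 kb interval had ranks in the upper 10.8% (ILCP replicate 1) and 11.3% (ILCP replicate 2) and no peak in any of the other 7 libraries. The +9.7 kb interval, between the genes, was the highest-ranking distal site of the locus in ILCP, in the upper 6.61% and 8.64%, and ranked in the upper 12.9% and 25.1% in NKT, with no peak in CD4SP or CLP. It was the only interval of the 43 that was specific to NKT against CD4SP and to ILCP against CLP. The share of such intervals over all merged intervals is not given here. The -5.1 kb interval, at about the distance of a known conserved element upstream of Il17a, was open in ILCP alone, in the upper 50.3% and 35.2%. The +35.8 kb interval, between the genes and nearer to Il17f, was open in ILCP alone as well, in the upper 48.4% and 39.2%. The +23.7 kb interval was open in both ILCP libraries (upper 27.9% and 32.8%) and, at low rank, in CLP replicate 3 (upper 91.8%), so it was not called specific. NKT replicate 1 alone had a low-ranking peak at +13.0 kb (upper 94.4%). No library had a peak within 1 kb of the start of Il17a or of either annotated start of Il17f. All other CD4SP and CLP peaks of the Il17f window lay beyond Il17f, in or next to Mcm3, the gene of a replication helicase subunit. Its start, at +89.5 kb, was open in all 9 libraries (upper 5.46% to 10.1%). An interval at +94.3 kb was open in every CD4SP, NKT and ILCP library and in no CLP library, with ranks from the upper 10.2% (NKT replicate 1) to the upper 52.2% (ILCP replicate 1).

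**Figure D2:**
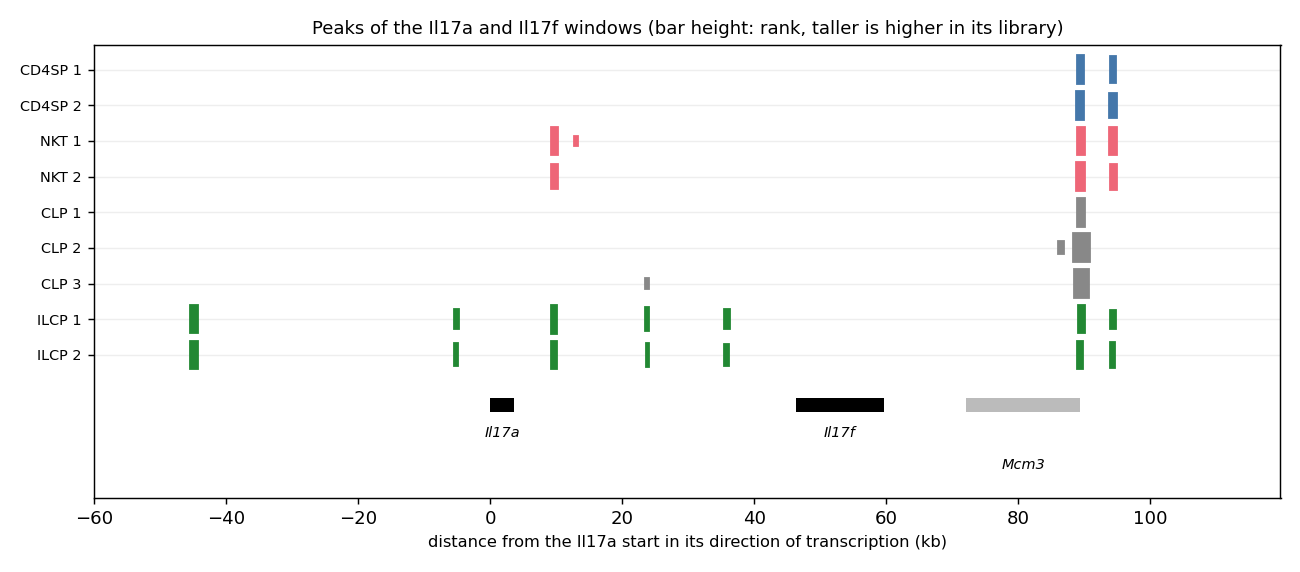
Peaks of the Il17a and Il17f windows in each of the 9 libraries (rows), by distance from the Il17a start in kb (horizontal axis); a taller bar is a peak of higher rank within its library, and gene bodies are drawn at the foot, members in black. Both ILCP libraries share 5 sites from -44.9 to +35.8 kb, of which NKT shares the site at +9.7 kb, while CD4SP has no peak before the Mcm3 start.

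Il22 encodes the type 3 cytokine that acts on epithelia. Its window (gene at chr10:118204942-118210047, plus strand) held 1 peak in each CD4SP, NKT and ILCP library and 0 in the 3 CLP libraries. Each of those 6 libraries was therefore higher than CLP, and NKT and CD4SP held the same number. The difference was 0 in the thymus (exact permutation p = 1) and 1 peak in the marrow (exact permutation p = 0.1). All 6 peaks fell in the interval at -32.3 kb, nearest to the start of Mdm1. It ranked in the upper 39.5% and 44.2% in NKT, the upper 71.0% and 75.6% in CD4SP and the upper 61.0% and 76.2% in ILCP, so both NKT peaks ranked above both CD4SP peaks. No library had a peak within 1 kb of the start of Il22 or of the 2 predicted genes whose starts lie in the window, Gm32717 and Gm32802. Only 54.2% of the 50-base stretches of the Il22 window occur once in the genome, against 82.6% to 96.5% for the other members, and how reads from repeated stretches were placed is not given in the sources used here. The Il22 call in ILCP was lost where every library was reduced to its 19343 highest-scoring peaks (difference 0.5), with the higher-scoring 50% of peaks or a 20 kb window (difference 0) and with a 100 kb window (difference 0.667). The thymic difference was 1, called higher in NKT, with equal peak numbers or the higher-scoring 50%, and -1.5, called lower, with 100 kb, and by base pairs covered NKT was called higher, by 212 bp.

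Ifng had the largest window count of any member in NKT. Its window (gene at chr10:118441046-118445892, plus strand) held 5 peaks in both CD4SP libraries, 10 and 9 in NKT, 3, 7 and 6 in CLP and 3 in both ILCP libraries. NKT lay above all other libraries, and ILCP lay at the lowest CLP value. The difference was 4.5 peaks in the thymus (9.5 ± 0.707, SD, n = 2, against 5 ± 0; exact permutation p = 0.333) and -2.33 in the marrow (exact permutation p = 0.4). With equal peak numbers or the higher-scoring 50% of peaks the thymic difference was 1.5, still without overlap, and the marrow difference was -0.17 and 0. Ifng was called lower in ILCP with CLP replicate 1 left out (difference -3.5), with base pairs covered and with peaks per 10000. The difference between tissues had an exact permutation p of 0.0667. The NKT call was lost with a window of 20 kb.

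The leading interval among the 11 of Ifng differed between the thymic types and CLP, and also between the ILCP libraries. The -21.8 kb interval, at about the distance of a conserved upstream enhancer known to bind T-bet, was open in all 9 libraries. It ranked in the upper 5.06% and 6.32% in CD4SP and the upper 7.41% and 10.7% in NKT, but only in the upper 94.4%, 72.1% and 55.1% in CLP and the upper 53.2% and 32.9% in ILCP. It was thus the leading Ifng site in both thymic types, no higher in NKT than in CD4SP, and all thymic ranks were above all marrow ranks. In CLP the leading site was at +28.1 kb, in the upper 36.3%, 27.0% and 23.0%, where NKT ranked in the upper 47.7% and 43.6%, and where CD4SP replicate 2 and ILCP replicate 1 had low-ranking peaks (upper 79.5% and 84.6%). Specific to NKT within the thymus were the -34.0 kb interval (upper 46.6% and 53.0%) and the +36.5 kb interval (upper 80.7% and 65.3%). Neither was particular to NKT over the whole series, since CLP replicates 2 and 3 had both and ILCP replicate 2 had the former. The +40.4 kb interval was open in all 9 libraries and ranked highest in NKT replicate 1 (upper 20.8%), which had 2 peaks in it. The +19.4 and +45.9 kb intervals were open in every thymic library, and of the marrow libraries CLP replicate 2 alone had a peak at the latter. Intervals at +18.0, +20.5 and +29.7 kb were open in all libraries of no type. Within 1 kb of the Ifng start only NKT replicate 2 had a peak, centred at +1.1 kb in an intron and ranked in the upper 84.0%.

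**Figure D3:**
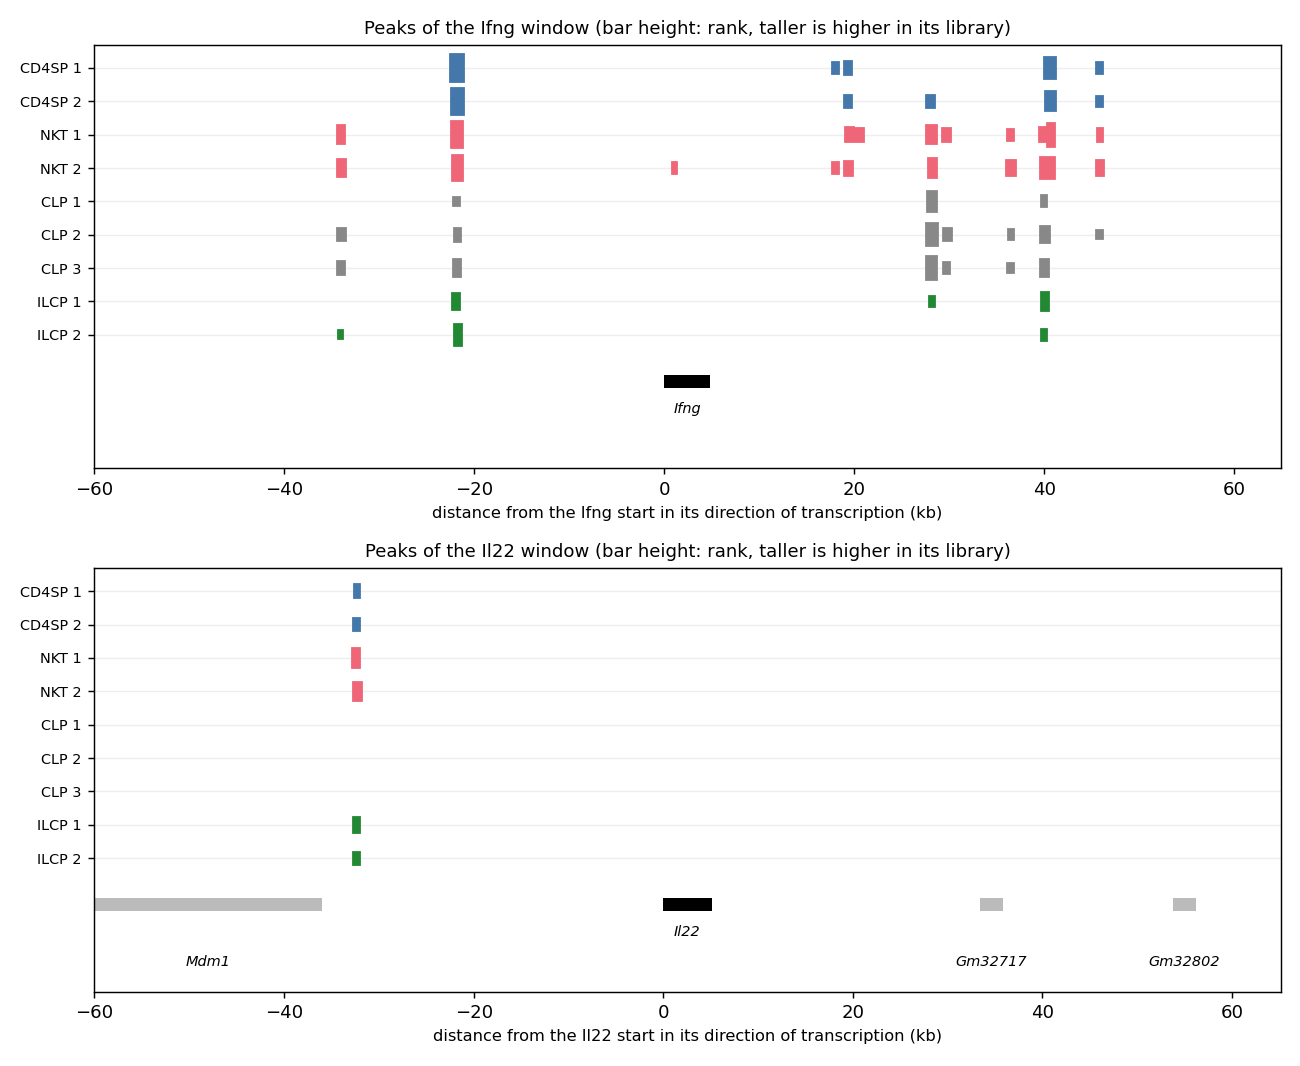
Peaks of the Ifng window (upper panel) and of the Il22 window (lower panel) in each of the 9 libraries (rows), by distance from the gene's start in kb (horizontal axis), with taller bars for peaks of higher rank within their library. The Ifng site at -21.8 kb is tallest in the 4 thymic libraries and the site at +28.1 kb in CLP, and the single Il22 site at -32.3 kb is absent from the 3 CLP libraries.

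Gzma, on chromosome 13 (chr13:113093825-113100981, minus strand), encodes a tryptase of cytotoxic granules. Its window held 4 and 3 peaks in CD4SP, 5 in both NKT libraries, 0, 1 and 1 in CLP and 1 in both ILCP libraries. NKT was above CD4SP without overlap, by 1.5 peaks (exact permutation p = 0.333), while ILCP and CLP shared the value 1 (difference 0.333, exact permutation p = 1). The start of Gzma was open in all 4 thymic libraries (upper 48.5% to 68.1%) and in 0 of 5 marrow libraries, with CD4SP and NKT ranks interleaved. The interval at -19.7 kb was open in the same 4 libraries (upper 38.02% to 52.4%). An interval at +29.7 kb, in an intron of Cdc20b, was specific to NKT (upper 67.6% and 60.9%). The interval at -34.1 kb was open in both ILCP libraries and no other (upper 69.4% and 67.9%), so the marrow count of 1 stood for different sites in the 2 types, since the CLP peaks lay at the Cdc20b start at +65.4 kb. Gpx8, whose start also lies in the window, had a peak there in CD4SP replicate 1 and NKT replicate 2. The NKT call was lost with equal numbers of peaks per library (difference 0) and with the higher-scoring 50% of peaks, a 20 kb window or a 100 kb window (difference 0.5 in each). Gzma was called higher in ILCP with equal peak numbers or without peaks at the starts of other genes (difference 1 in each) and with peaks per 10000 (difference 0.22).

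Gzmb (chr14:56258838-56262260, minus strand) encodes the granzyme that activates caspases in the target cell. Its window held 4 and 5 peaks in CD4SP, 5 and 6 in NKT, 0 in all 3 CLP libraries, and 1 and 2 in ILCP. The thymic types shared the value 5, both marrow types lay below them, and ILCP was above CLP. The differences were 1 peak in the thymus (exact permutation p = 0.667) and 1.5 in the marrow (exact permutation p = 0.1), and their sum had an exact permutation p of 0.0333 before adjustment. Leaving out CD4SP replicate 2 or NKT replicate 1 gave a thymic call, with a difference of 1.5, as did the replicate block, equal peak numbers and the higher-scoring 50% of peaks, with a difference of 1, and peaks per 10000, with 0.24. The leading site was at -34.5 kb, open in the 4 thymic libraries and no marrow library, in the upper 14.7% and 15.98% in CD4SP and the upper 19.96% and 23.3% in NKT. At -22.4 kb the order was the other way, with NKT in the upper 33.2% and 35.6%, CD4SP in the upper 66.2% and 59.5%, and ILCP replicate 2 in the upper 69.8%. The interval at -31.1 kb was specific to NKT (upper 65.8% and 74.2%), and that at -25.8 kb to ILCP (upper 77.9% and 71.7%), with no peak in any other library. Low-ranking intervals at +21.6 kb (all thymic libraries), -42.1 kb (both CD4SP libraries and NKT replicate 2) and -52.4 kb (both NKT libraries and CD4SP replicate 2) made up the rest. No library had a peak within 1 kb of the start of Gzmb or of its neighbours Gzmc and Gzmf. All ILCP peaks of the window ranked below the upper 50% of their library, and the ILCP call was lost with equal numbers of peaks per library, with the higher-scoring 50% of peaks and with a 20 kb window.

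Prf1 (chr10:61297833-61304680, plus strand) was the only member lower in NKT than in CD4SP. Its window held 6 and 7 peaks in CD4SP, 4 and 5 in NKT, 1, 2 and 2 in CLP, and 3 and 2 in ILCP. CD4SP was the highest type without overlap, and CLP and ILCP shared the value 2. The difference was -2 peaks in the thymus (exact permutation p = 0.333) and 0.833 in the marrow (exact permutation p = 0.6). Prf1 was called higher in ILCP with ILCP replicate 2 left out (difference 1.33) and with peaks per 10000 (difference 0.46). The difference lay in 2 intervals specific to CD4SP, at -24.4 kb over the start of Adamts14 (upper 74.6% and 59.8%) and at +39.0 kb in an intron of Pald1 (upper 85.5% and 77.0%), and neither ranked high in its libraries. The thymic call was lost without peaks at the starts of other genes (difference -1), with equal peak numbers, the higher-scoring 50% of peaks or a 20 kb window (difference 0 in each), and with a 100 kb window (difference -3.5). CD8 T cell markers moved the same way, with summed window peaks of Cd8a and Cd8b1 of 9 and 13 in CD4SP and 1 and 8 in NKT. The start of Cd8b1 was open in 2 CD4SP libraries and 1 NKT library and that of Cd8a in 1 and 0, and the part of such cells in the Prf1 difference was not tested. The gate used to sort CD4SP cells is not given in the sources used here. At the Prf1 start, NKT ranked higher than CD4SP (upper 38.1% and 31.2% against 48.6% and 39.6%), CLP replicates 2 and 3 had low-ranking peaks (upper 69.1% and 88.2%), and CLP replicate 1 and ILCP had none. The intronic interval at +3.5 kb was thymic only. The interval at +8.5 kb, past the end of the gene, was open in all thymic libraries (upper 21.4% to 39.7%), in both ILCP libraries (upper 77.3% and 55.5%) and in no CLP library. The -22.0 kb interval was open in all 9 libraries and ranked highest in CLP (upper 32.7%, 25.4% and 24.5%).

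**Figure D4:**
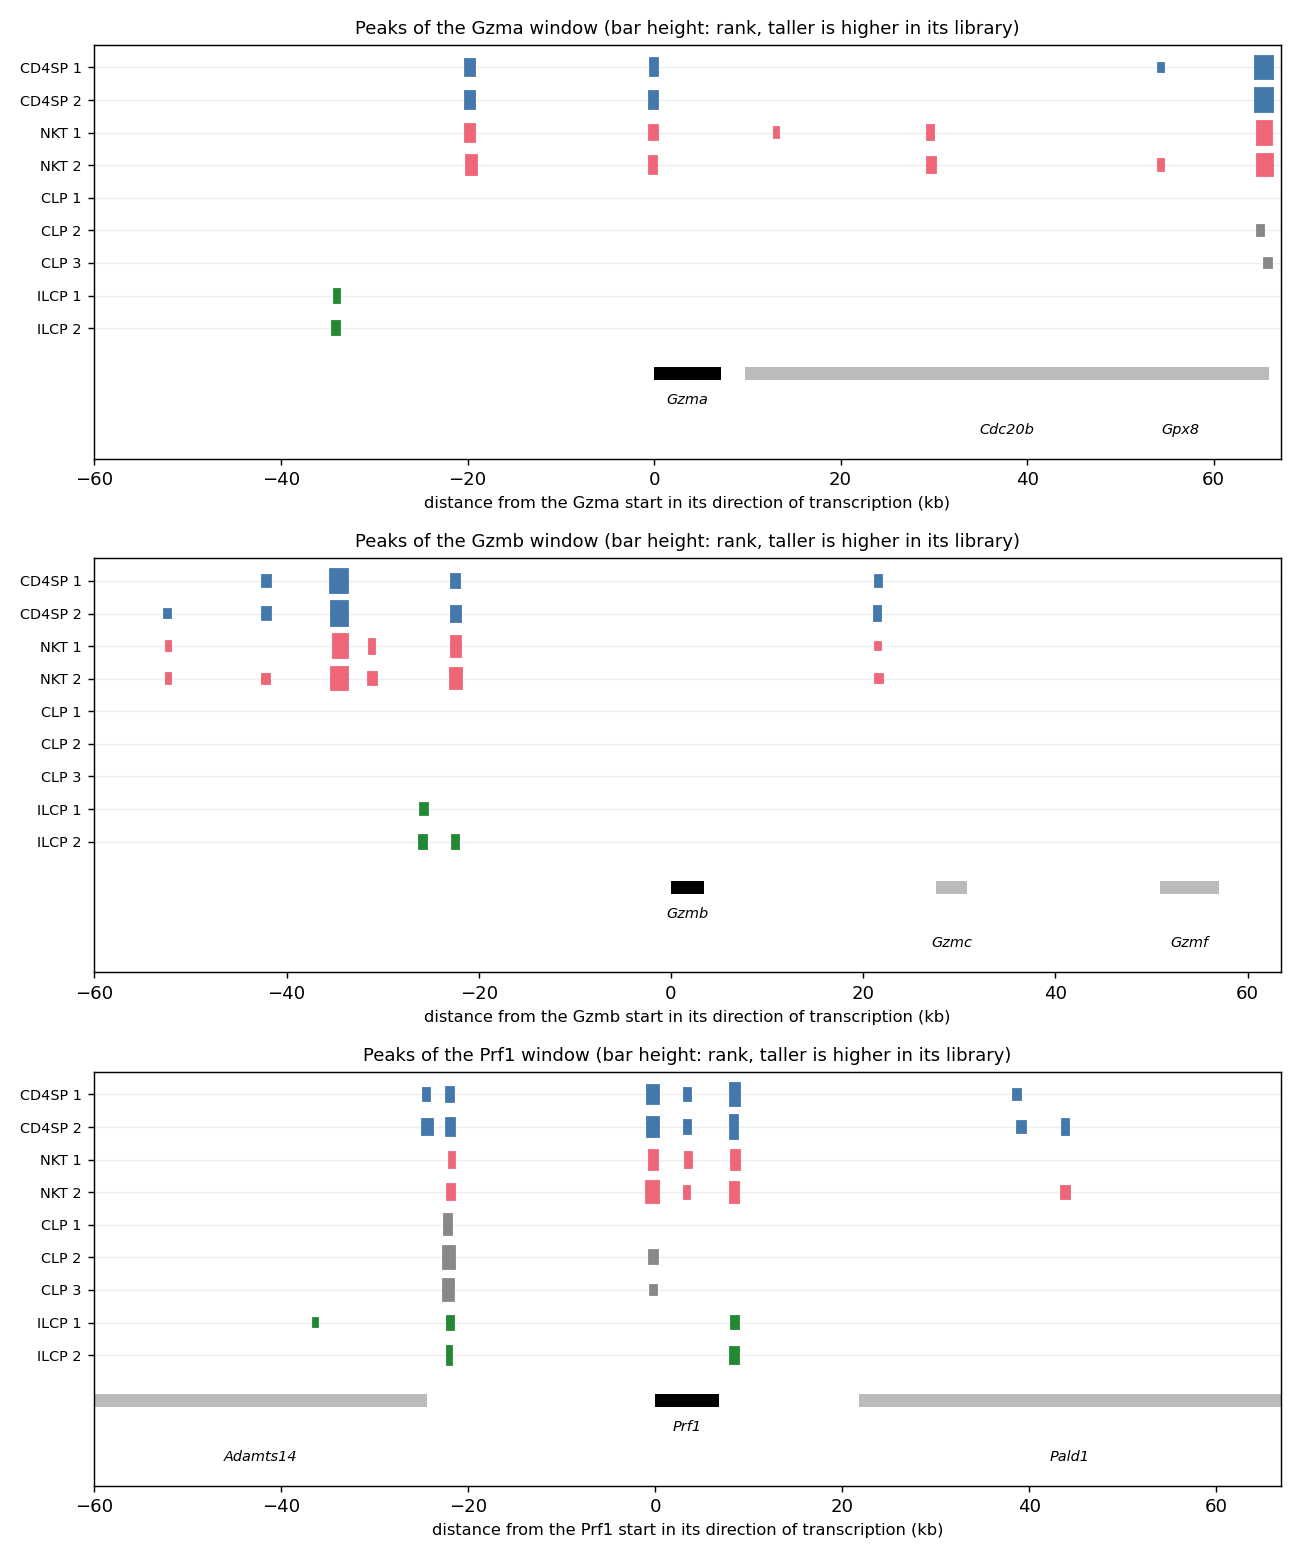
Peaks of the Gzma, Gzmb and Prf1 windows (panels) in each of the 9 libraries (rows), by distance from the gene's start in its direction of transcription in kb (horizontal axis), with taller bars for peaks of higher rank within their library. The Gzma and Gzmb windows hold most of their peaks in the 4 thymic libraries, ILCP has its own sites at -34.1 kb of Gzma and -25.8 kb of Gzmb, and the Prf1 start is open in thymus and in 2 CLP libraries but not in ILCP.

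Ncr1, a marker of natural killer cells, had a start that was open in ILCP alone (2 of 2 libraries), beside the ILCP-specific granzyme intervals. Of the 3 natural killer markers, Klra1 and Eomes had no open start in ILCP, and the summed window peaks of the 3 were 6 and 3 in ILCP and 0, 7 and 7 in CLP. ILCP were sorted as lineage-negative, and the lineage antibodies are listed for the CLP sort only, where they include NK1.1, an antigen of natural killer cells. The part of such cells in the ILCP intervals was not tested.

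Of the 43 intervals, 36 (83.7%) lay farther than 1 kb from any protein-coding start, beside 82.9% of all merged intervals. The others were 3 at a member's start and 4 at the start of a neighbour. Peaks were called in at least 1 library for 25 of them in CD4SP, 33 in NKT, 13 in CLP and 18 in ILCP. As shares of the 43 these are 58.1%, 76.7%, 30.2% and 41.9%, beside 55.6%, 57.1%, 62.4% and 40.7% of all merged intervals. The CLP share counts 3 libraries and the others 2. Open in every library of the type were 20, 24, 5 and 14 of the 43 (46.5%, 55.8%, 11.6% and 32.6%), beside 41.5%, 42.0%, 25.5% and 29.4% of all merged intervals. CLP had the fewest of the effector intervals by either count. Of the 43, 19 (44.2%) were open in thymic libraries only, beside 27.0% of all merged intervals, and 8 (18.6%) in marrow libraries only, beside 33.6%. Open in all 9 libraries were 4 (9.3%), beside 13.3%, and 10 (23.3%) were open in all libraries of no type, beside 36.0%. An interval was called specific where it was open in every library of a type and in none of the type compared with it in the tissue. Specific to NKT were 5 of 43, against 4.3% of all merged intervals, and to CD4SP 2, against 3.46%. Specific to ILCP were 9 of 43, against 6.34%, and to CLP 0, against 5.97%. Of the 9 ILCP-specific intervals, 5 were in the IL-17 windows, and 1 each near Il22, Gzma, Gzmb and Prf1. Without NKT replicate 2 the NKT-specific intervals numbered 9, and without CLP replicate 1 the CLP-specific intervals numbered 4. Per 10000 peaks of a library, the windows held 6.07 to 6.54 peaks in CD4SP, 7.48 and 8.36 in NKT, 2.58 to 2.89 in CLP, and 6.08 and 6.21 in ILCP, so NKT lay wholly above CD4SP and ILCP wholly above CLP on this scale.

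RUNX proteins bind DNA with their partner CBFβ and act at many lymphoid enhancers. RUNX letters were present in the central 200 bases of 24 of the 43 intervals (55.8%), beside 20383 of 71398 intervals over the nuclear genome (28.5%). Away from starts the share was 23 of 36 (63.9%), beside 31.1% of all distal intervals. They were found in 7 of the 9 ILCP-specific and 3 of the 5 NKT-specific intervals, in 0 of the 2 CD4SP-specific intervals, in 6 of 9 IL-17 intervals, in 8 of 11 Ifng intervals and in 9 of 22 intervals of the granzyme and Prf1 windows. The RUNX share among all merged intervals specific to a type was not computed. These small counts therefore do not tie RUNX letters to any type. The -5.1 kb interval of Il17a held 3 RUNX matches and 1 ROR match, as its sequence shows, and the intervals at -34.0 kb of Ifng, -34.1 kb of Gzma and -25.8 kb of Gzmb held 2 RUNX matches each. The +9.7 kb interval that ILCP and NKT shared held none in its centre. T-box letters were in 2 of 43 (4.65%, against 3.01% of all intervals), ROR letters in 6 (14.0%, against 11.3%), AP-1 letters in 5 (11.6%, against 6.82%) and TCF letters in 9 (20.9%, against 16.6%). Among the 300-base promoters, 5 of the 7 members held RUNX letters, against 22.4% of 32851 promoters. ROR letters were in 3 of the 7 (against 16.3%) and AP-1 letters in 2 (against 7.81%). TCF letters were in 1 (against 16%) and T-box letters in 0 (against 3.98%). A share above that of all promoters was thus not particular to RUNX letters, and these counts are small. The median GC content of the centres was 48.5%, beside 49.5% over all intervals. A match describes letters only, and binding was not measured by these libraries.

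**Figure D5:**
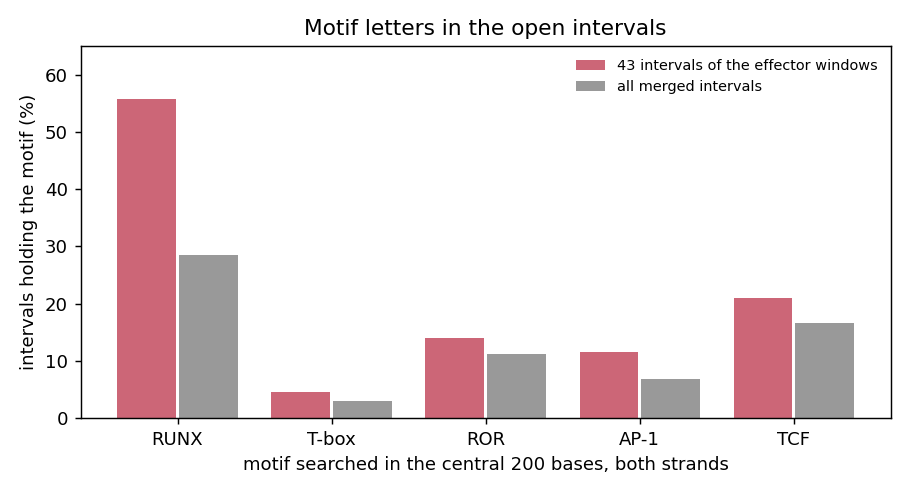
Share of intervals (vertical axis, percent) whose central 200 bases hold each of 5 motifs on either strand, for the 43 intervals of the effector windows and for all merged intervals. RUNX letters were in 55.8% of the effector intervals and 28.5% of all intervals, and the other 4 motifs lay within a few percentage points of the share over all intervals.

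Genes that control or carry out the same programs were counted by the same call, for which the shares over all genes are 9.75% higher and 6.62% lower in NKT, and 3.7% higher and 10.2% lower in ILCP. Of 14 type 1 regulators and receptors, 2 were higher in NKT, namely Tbx21, which encodes T-bet (4 and 4 window peaks in CD4SP against 5 and 5), and the chemokine receptor gene Cxcr3 (0 and 0 against 1 and 1). Among those lower in NKT was the receptor gene Ifngr1 (9 and 10 against 6 and 7). None of the 14 was higher in ILCP, and Hlx and Stat4 were lower than in CLP. Of 17 type 3 regulators and receptors, 1 was higher in NKT, the transcription factor gene Maf (2 and 2 against 4 and 4), and the receptor genes Il17ra and Il22ra2 were lower. In ILCP 0 of these 17 genes were higher, and 5 were lower (Batf, Il1r1, Il6ra, Il22ra2 and Il10rb). Of 8 other granzymes, Gzmc was higher in both comparisons, and its window overlaps that of Gzmb. Of 12 genes of granules and killing, Srgn, Nkg7 and Rab27a were higher in NKT, Cst7 was higher in ILCP, and Stxbp2, needed for granule release, was lower in both. Nkg7 held 4 peaks in both CD4SP libraries and 9 in both NKT libraries. Of 10 other effector cytokines and chemokines, Il2 was higher in NKT (3 and 3 against 5 and 4) and its start was open in both NKT libraries alone, while Tnf, Lta, Ccl3 and Ccl4 were lower in ILCP than in CLP.

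The genes whose window counts over the 9 libraries were nearest to each member's were named by Pearson's r, as a description over points that share library depth. For Il17a these were Cntn1 (r = 0.981), Rhbdl2, Il17f, Tbck and Hey1, and for Il17f they were Phf3 (r = 0.971), Il17a, Eif3h, Cntn1 and Rhbdl2. For Ifng they were Srgap3 (r = 0.981), Slc35a3, Tent5c, Unc5b and Fam129a. For Gzma they were Scn11a (r = 0.991), Pja2, Ddx51, Noc4l and Gstm1, the last level with 2 further genes, and for Gzmb B3glct (r = 0.991), Adh6a, Akna, Olfr1512 and Adh1. For Prf1 they were Tdrp (r = 0.986), Hemgn, Adamts14, Als2cl and Skap2, of which Adamts14 shares part of the window. Il22 had 8 genes at r = 1, since its counts take only the values 0 and 1.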

How the data were processed

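ATAC-seq was performed on sorted mouse CD4SP, NKT, CLP and ILCP cells, with 2, 2, 3 and 2 libraries. The authors aligned reads to mm10 and called peaks per library with MACS; the submitters' processing notes name Bowtie, Picard and HOMER, with no versions. The deposited peak lists hold a position and a peak-caller score, with no read counts, so the depth of each library, for which the methods give only a range, and its counting error are unknown. The score starts at 120 in the libraries and was used only as a rank within a library (upper percent; a smaller value is a stronger peak).

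Genes and start sites were taken from GENCODE on GRCm38, on which 21 of 21 chromosomes held all peaks, and promoters from RefSeq. Peaks were merged across libraries at an overlap of 1 bp or more. Window peak counts were compared for all 21938 protein-coding genes by exact two-sided permutation of library labels within a tissue, and p-values were adjusted by Benjamini-Hochberg over all genes. The procedure was tested on simulated data. Python 3.11.15, numpy 2.4.6, pandas 2.3.3 and matplotlib 3.10.9 were used. The genes named were the 7 members, every interval specific to a type, open in all libraries of a type or at a member's start, the listed genes called in either comparison, neighbours with a start in a window, and the 5 nearest patterns per member. Members and lists were chosen with earlier results of these data known. Alternatives covered the peaks counted, the window, the measure, neighbouring starts, the replicate block and each library left out. The Runx1 ChIP-seq library and its input were not analysed here. Results for a few listed genes are not reported here.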

Additional observations from a re-analysis of the deposited data

How the results depend on the processing

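The numbers of libraries, 2 or 3 per type, and peak lists without read counts limit all of these comparisons, and a window does not tie an open site to the gene it surrounds. Members higher in NKT numbered 4 as reported, 1 with a window of 20 kb and 2 with 100 kb, and members lower in NKT numbered 1 as reported and 0 with equal peak numbers, with the higher-scoring 50% of peaks, with 20 kb, and without peaks at other genes' starts; with 100 kb it stayed at 1, but the gene was Il22 in place of Prf1. Members higher in ILCP numbered 4 as reported and 2 with the higher-scoring 50% of peaks and with 20 kb, and members lower in ILCP rose from 0 to 1 (Ifng) with base pairs covered and with peaks per 10000. Members higher in both numbered 2 as reported, 1 with 20 kb and with 100 kb, and 4 with peaks per 10000. Il17a was higher in both under every alternative run. NKT-specific intervals numbered 5 as reported, 1 with 20 kb and 10 where any library of the type sufficed. CD4SP-specific intervals numbered 2 as reported, 0 with equal peak numbers, the higher-scoring 50% or 20 kb, 7 with 100 kb, and 1 without intervals at other genes' starts. ILCP-specific intervals numbered 9 as reported and 4 with the higher-scoring 50% or 20 kb. CLP-specific intervals numbered 0 as reported, 1 with equal peak numbers, the higher-scoring 50% or a peak over 50% of the interval, and 6 where any library sufficed. The cause of these changes was not tested.

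With each library left out in turn, members higher in NKT ranged from 4 to 5, lower in NKT stayed at 1, higher in ILCP ranged from 4 to 5, lower in ILCP from 0 to 1, and higher in both from 2 to 3. NKT-specific intervals ranged from 5 to 9, CD4SP-specific from 2 to 3, ILCP-specific from 9 to 10 and CLP-specific from 0 to 4. With the replicate block, which compared libraries within a shared number, members higher in NKT were 5 (Gzmb was added) and higher in ILCP 4. Same-numbered libraries share only a number here: over all genes the replicate differences correlated at 0.622 between NKT and CD4SP and -0.088 between ILCP and CLP, and with 2 shared numbers the pairing cannot be judged. Each single-gene difference was also taken under each alternative. Of these results, 152 kept the call or the lack of one, 18 gained a call and 19 lost one. No difference called as reported changed direction. Some without a call did, such as Gzma in the marrow (0.333 as reported, -1 with 100 kb) and Prf1 in the marrow (0.833 as reported, -0.5 with the higher-scoring 50%). Il22 in the thymus gained calls in both directions (1 with equal peak numbers, -1.5 with 100 kb).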
